A study of Mus musculus with 12 samples.

Results

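The sterol regulatory element-binding protein (SREBP) machinery and its sterol sensing partners were followed here through 8 genes, *Srebf1*, *Srebf2*, *Scap*, *Insig1*, *Insig2*, *Mbtps1*, *Mylip* and *Stard4*, out of 19938 genes measured in the liver of newborn mice. The genes were chosen by name, with earlier results of these data known, so counts of members set against all genes are descriptions. Each was read from the probe set of the array that names it alone, and all 8 had exactly 1 such probe set. In livers without PPARα, *Insig1* was 1.31-fold and *Stard4* 1.14-fold higher than in wild-type livers, and these were the 2 members that passed the test. *Srebf2* (log2 difference 0.16), *Srebf1* (-0.34) and *Mylip* (-0.15) did not pass after adjustment. *Scap*, *Insig2* and *Mbtps1* differed by 0.04 or less on the log2 scale.

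SREBPs are transcription factors made as membrane proteins of the endoplasmic reticulum. When sterols are scarce, SCAP escorts them to the Golgi, where the site-1 protease encoded by *Mbtps1* starts the cleavage that frees the part that enters the nucleus. When sterols are abundant, the INSIG proteins hold SCAP and its cargo in the endoplasmic reticulum. In liver, SREBP-2 is best known for driving cholesterol synthesis and uptake and SREBP-1c for driving fatty acid synthesis, and the oxysterol-activated liver X receptors (LXRs) act in the opposite sense on cholesterol. *Mylip* encodes IDOL, an LXR-induced ubiquitin ligase that marks lipoprotein receptors for degradation. *Stard4* encodes a soluble sterol carrier of the cytosol and is itself a known SREBP-2 target, as is *Insig1*.

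The animals were suckling pups killed at postnatal day 2 (P2), 6 *Ppara*+/+ and 6 *Ppara*-/-, with 3 males and 3 females of each genotype and 1 array of whole-liver RNA per pup. *Ppara*-/- pups carry the null allele of the fatty acid receptor PPARα in every cell, and both genotypes were born in shared litters to heterozygous parents. The labels give the strain as SV129, whereas the methods of the study name a C57BL/6 background. Values are log2 signals after robust multi-array averaging (RMA), so that a difference of 1 is a doubling, and signals of different genes cannot be ranked because each probe set has its own brightness.

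The label check held, with *Ppara* at 11.16 ± 0.12 in *Ppara*+/+ and 10.27 ± 0.05 in *Ppara*-/- livers (log2 signal, mean ± SD, n = 6 each; limma, adjusted p = 1.2e-06), and the 6 pups of 1 genotype did not overlap with those of the other. Array medians ran from 7.16 to 7.20, and array pairs correlated at 0.989 to 0.996. All 9 measured hepatocyte markers lay far above these medians, from *Hnf4a* at 12.25 to *Alb* at 14.24, as the tissue label states. The members' own means lay between 9.56 and 11.22, all above the array medians. Which litter a pup came from is not labelled, so p-values describe the spread between pups and could take no account of litter. In whole liver, a change in the number of cells of a type and a change in RNA per cell cannot be told apart.

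Across all genes tested, 1.99% were called higher and 1.12% lower in *Ppara*-/- livers, where a call is an adjusted p under 0.05 in limma with sex as a second term. Of the 8 members, 2 were called higher and 0 lower, and the median difference over the members was 0.01 against -0.01 over all genes. Before adjustment, 3 members had p under 0.05 and higher values, against 9.27% of all genes, and 2 had p under 0.05 and lower values, against 7.89% of all genes. The 6 *Ppara*-/- pups all lay above the 6 *Ppara*+/+ pups for 2 members, against 2.88% of all genes, and all below for 0 members, against 1.43% of all genes. When a change above 1.3-fold was also asked for, *Insig1* was the 1 member left, against 0.707% of all genes called higher. The members' differences lay on both sides of 0, 4 above and 4 below.

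**Figure D1:**
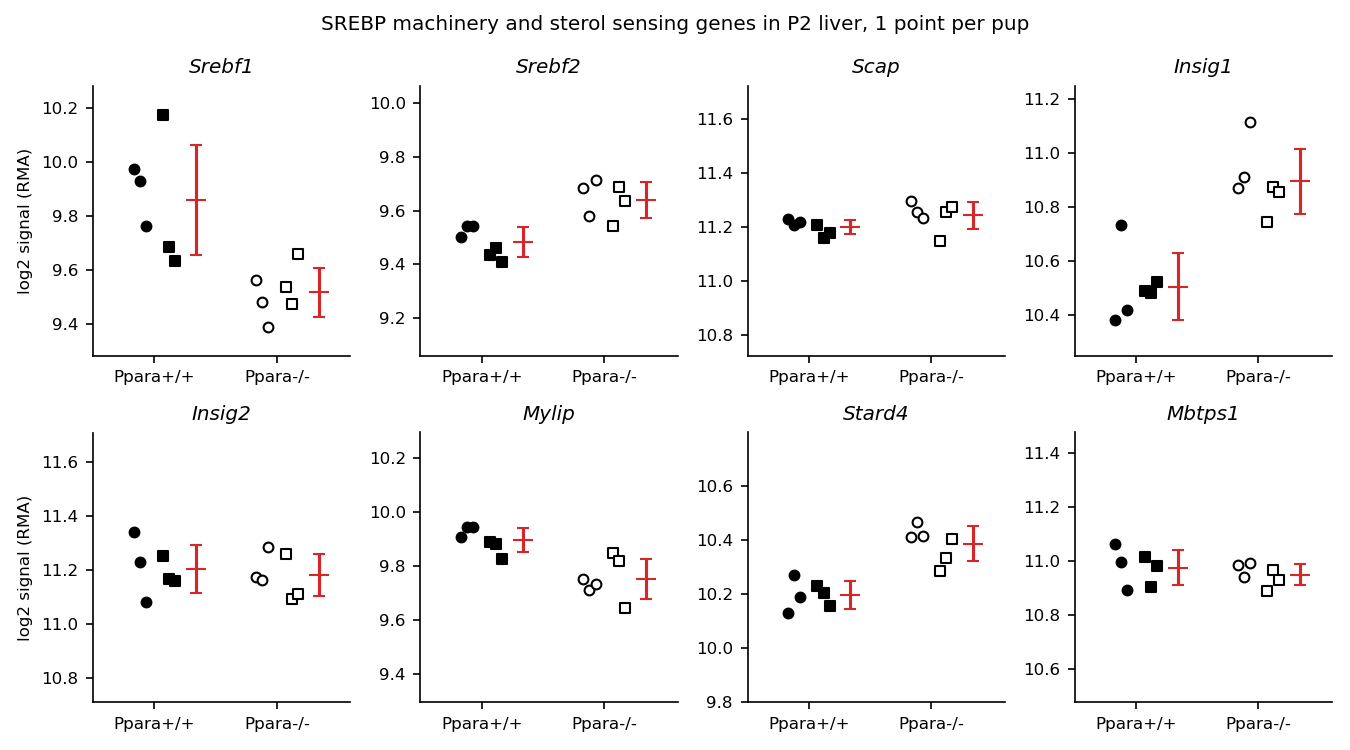
Log2 RMA signal (vertical axes, each panel spanning the same number of log2 units) of the 8 genes in 12 P2 livers, with 1 point per pup. Filled symbols are *Ppara*+/+ and open symbols *Ppara*-/-, circles are males and squares females, and the red bar is the mean ± SD of 6 pups. *Insig1* and *Stard4* show no overlap between genotypes, whereas *Insig2* and *Mbtps1* overlap broadly.

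The transcription factors themselves stood on opposite sides of 0. *Srebf2*, which encodes SREBP-2, ran from 9.41 to 9.54 in *Ppara*+/+ livers with a median of 9.48, and from 9.54 to 9.71 with a median of 9.66 in *Ppara*-/- livers. All but the lowest *Ppara*-/- pup, female 10, lay above every wild-type pup. The difference was 0.16 on the log2 scale (SE 0.0389, 95% interval 0.07 to 0.24), or 1.12-fold, and it did not pass after adjustment (limma, adjusted p = 0.0638). By a 2-sided exact permutation test of this gene alone over the 12 pups, p was 0.00433. The call depended on the setting. The adjusted p was 0.0377 with testing limited to probe sets that name 1 gene, 0.0258 with the dim probe sets left out, 0.0312 with a trended robust prior and 0.0466 without *Ppara*-/- replicate 5. That last fit was the only 1 of the 12 without 1 pup in which *Srebf2* passed, and adjusted p (limma) reached 0.155 among them.

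*Srebf1*, which encodes SREBP-1a and SREBP-1c from separate promoters, ran from 9.63 to 10.17 in *Ppara*+/+ livers with a median of 9.84, and from 9.39 to 9.66 with a median of 9.51 in *Ppara*-/- livers. The wild-type pups were the more spread out, with an SD of 0.20 against 0.09, and female 7 was the highest of them at 10.17. Of the 6 *Ppara*-/- pups, 5 lay below every wild-type pup, and female 12 at 9.66 lay within the wild-type range. The difference was -0.34 (SE 0.0892, 95% interval -0.54 to -0.15), a 1.27-fold lower signal, and it too missed the threshold (limma, adjusted p = 0.0788; 2-sided exact permutation p = 0.00433). It passed with testing limited to probe sets that name 1 gene (adjusted p = 0.0389) or without *Ppara*+/+ replicate 9 (0.0483). Of the 12 fits that left out 1 pup, this was the only 1 in which *Srebf1* passed, and adjusted p (limma) reached 0.170 among them. The probe set does not separate the 2 isoforms, so the difference cannot be assigned to SREBP-1a or SREBP-1c.

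Within a pup, the *Srebf1* signal minus the *Srebf2* signal removes whatever scales both genes alike. This difference was 0.376 ± 0.206 in *Ppara*+/+ and -0.124 ± 0.130 in *Ppara*-/- livers (log2 units, mean ± SD, n = 6; 2-sided exact permutation p = 0.00216, the smallest value 924 splits allow, and 0.00433 after adjustment over the 2 gene pairs examined). Only its change between genotypes can be read, not its sign, because the probe sets differ in brightness. The genotypes did not overlap, with *Ppara*+/+ pups from 0.217 to 0.738 and *Ppara*-/- pups from -0.326 to 0.022. The shift of -0.50 log2 units stayed between -0.53 and -0.43 when any 1 pup was left out. *Srebf1* and *Srebf2* thus changed unequally between the genotypes. Alone, neither passed after adjustment over all probe sets, a stricter adjustment than that over 2 pairs. By the same exact permutation test, without adjustment, each gene alone had p = 0.00433, so the 2 outcomes are not on the same footing.

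**Figure D2:**
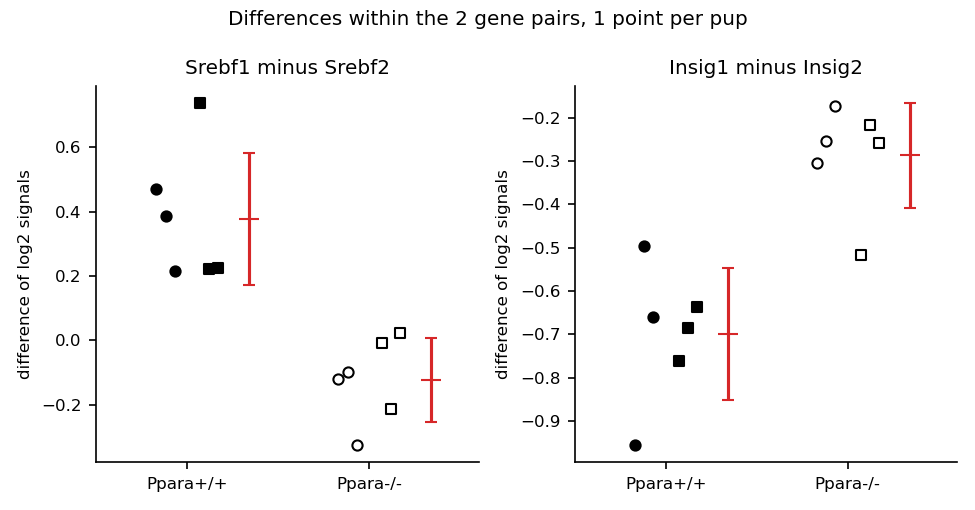
Difference of log2 RMA signals within each pup for *Srebf1* minus *Srebf2* (left) and *Insig1* minus *Insig2* (right), by genotype. Filled symbols are *Ppara*+/+, open symbols *Ppara*-/-, circles males, squares females, and red bars the mean ± SD of 6 pups; the *Srebf* differences do not overlap between genotypes, and the *Insig* differences meet between -0.517 and -0.495.

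*Scap* encodes the escort protein that carries SREBPs out of the endoplasmic reticulum. Its signal was narrow in both genotypes, from 11.16 to 11.23 with a median of 11.21 in *Ppara*+/+ and from 11.15 to 11.29 with a median of 11.25 in *Ppara*-/- livers. Of the *Ppara*-/- pups, 5 lay just above the wild-type range and female 10 lay just below it. The difference of 0.04 had a 95% interval from -0.03 to 0.12 (limma, adjusted p = 0.599; 2-sided exact permutation p = 0.0952), so that a change beyond 1.08-fold higher lay outside the interval.

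*Insig1* and *Insig2* encode the proteins that hold the SCAP complex back. *Insig1*, whose own promoter is a known target of SREBPs, ran from 10.38 to 10.73 in *Ppara*+/+ livers with a median of 10.48 and from 10.74 to 11.11 with a median of 10.87 in *Ppara*-/- livers. The genotypes did not overlap, but the highest wild-type pup, male 2, and the lowest *Ppara*-/- pup, female 10, lay side by side at 10.73 and 10.74. The difference was 0.39 (SE 0.0676, 95% interval 0.24 to 0.54), or 1.31-fold (1.18 to 1.45), and it passed the test (limma, adjusted p = 0.0093; 2-sided exact permutation p = 0.00216, the smallest possible). *Insig1* passed with each of the 12 pups left out in turn, with differences from 0.35 to 0.43.

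*Insig2* showed no such difference. It ran from 11.08 to 11.34 with a median of 11.20 in *Ppara*+/+ and from 11.09 to 11.29 with a median of 11.17 in *Ppara*-/- livers, so that the *Ppara*-/- pups lay wholly inside the wild-type range. The difference was -0.02 with a 95% interval from -0.14 to 0.09 (limma, adjusted p = 0.888), and its sign was not stable, being 0.00 (above 0) without *Ppara*+/+ replicate 1. The *Insig1* minus *Insig2* difference within pups moved from -0.700 ± 0.153 to -0.287 ± 0.121 (n = 6 each; 2-sided exact permutation p = 0.00433, adjusted over the 2 pairs 0.00433), a shift of 0.41 log2 units. Its ranges met in a narrow zone, with *Ppara*-/- female 10 at -0.517 below the highest wild-type pup at -0.495.

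*Mbtps1*, the site-1 protease gene, ran from 10.89 to 11.06 with a median of 10.99 in *Ppara*+/+ livers and from 10.89 to 10.99 with a median of 10.95 in *Ppara*-/- livers. The groups overlapped almost fully. The difference was -0.03 with a 95% interval from -0.11 to 0.06 (limma, adjusted p = 0.822).

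*Stard4* and *Mylip* act on sterols and their uptake. *Stard4*, the sterol carrier gene, ran from 10.13 to 10.27 with a median of 10.20 in *Ppara*+/+ livers and from 10.29 to 10.47 with a median of 10.41 in *Ppara*-/- livers, with no overlap. The difference was 0.19 (SE 0.0397, 95% interval 0.10 to 0.28), or 1.14-fold, and it passed narrowly (limma, adjusted p = 0.0301). It no longer passed in 9 of the 12 fits that left out 1 pup, namely without *Ppara*-/- replicates 4, 5, 6, 11 or 12 or *Ppara*+/+ replicates 1, 3, 8 or 9, where adjusted p reached 0.0769. Over all 12 such fits the difference stayed between 0.17 and 0.21.

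*Mylip*, the IDOL gene, ran from 9.83 to 9.94 with a median of 9.90 in *Ppara*+/+ livers and from 9.65 to 9.85 with a median of 9.74 in *Ppara*-/- livers. The 5 lowest *Ppara*-/- pups lay below the whole wild-type range, and female 10 lay just inside it. The difference of -0.15 (SE 0.0426, 95% interval -0.24 to -0.05) did not pass the threshold (limma, adjusted p = 0.119; 2-sided exact permutation p = 0.00433).

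**Figure D3:**
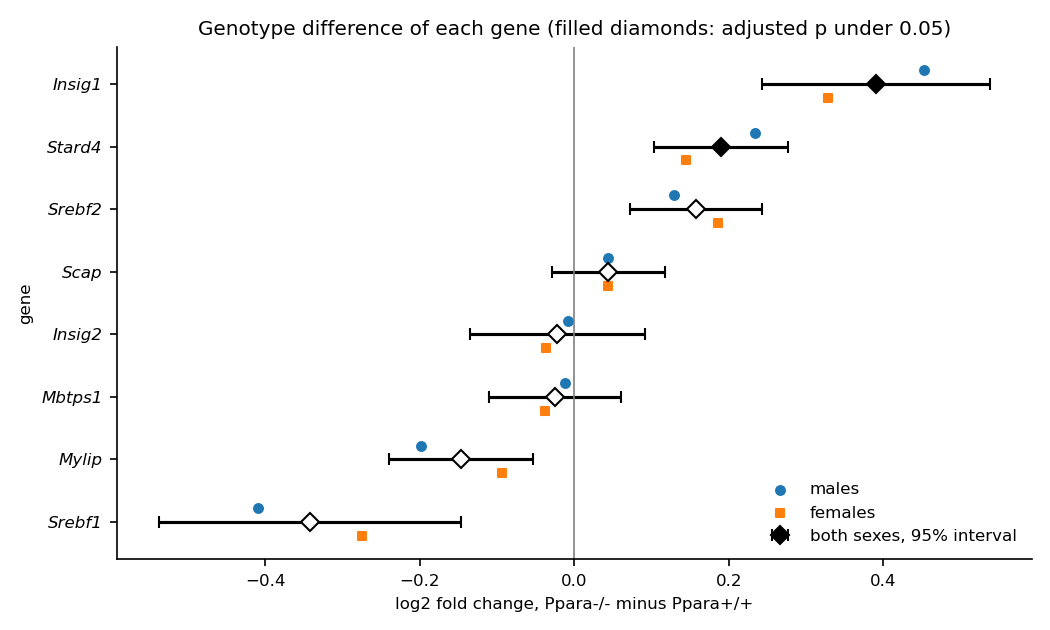
Log2 fold change between genotypes (horizontal axis, *Ppara*-/- minus *Ppara*+/+) for each gene. Diamonds give the fit over both sexes with its 95% interval, filled where the adjusted p was under 0.05, and circles and squares give the difference within males and within females; *Insig1* at 0.39 and *Stard4* at 0.19 are filled, and every gene keeps its side of 0 in both sexes.

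Males and females gave differences of the same sign for all 8 genes. *Insig1* differed by 0.45 in males and 0.33 in females, *Stard4* by 0.23 and 0.15, *Srebf2* by 0.13 and 0.19, *Srebf1* by -0.41 and -0.28, and *Mylip* by -0.20 and -0.09. No member was called within a single sex, where 3 pups face 3, against 0.928% of all genes called in males and 0.808% in females. An unadjusted p under 0.05 was found for 5 members in males and 3 in females, against 9.73% and 9.79% of all genes. The genotype by sex interaction was called for 0 members (limma, smallest unadjusted p 0.242, for *Mylip*), and 0 had an unadjusted p under 0.05. Sex itself was also called for 0 members, with differences between males and females from -0.01 to 0.08 and 0 unadjusted p under 0.05.

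The promoters of the genes that carry these differences can be read beside the values. RefSeq windows of 250 bases before to 50 after a transcription start (mouse build GRCm38.p6) were at hand for 7 of the 8 members, in 12 windows. They were searched on both strands for the sterol regulatory element TCACNCCAC, the E-box CACGTG, the NF-Y box CCAAT, and pairs of AGGTCA in direct repeat with a spacing of 1 base (DR1, the PPAR type) or 4 bases (DR4, the LXR type). A shorter sterol element, TCACCCCA, which overlaps the first, was added after the sequences had been seen. The windows printed are those of *Insig1*, the member with the largest difference, of *Srebf2* and of 1 of the 3 *Srebf1* starts, the pair that changed unequally, and of *Hmgcs1*, a SREBP-2 target of cholesterol synthesis that was called higher (0.47, limma, adjusted p = 0.0044) and whose window holds the full element. Capitals mark every match to these motifs, in the gene's own 5′ to 3′ direction, where an NF-Y box of the opposite strand reads ATTGG.
Insig1 promoter, chr5:28071162-28071461, plus strand: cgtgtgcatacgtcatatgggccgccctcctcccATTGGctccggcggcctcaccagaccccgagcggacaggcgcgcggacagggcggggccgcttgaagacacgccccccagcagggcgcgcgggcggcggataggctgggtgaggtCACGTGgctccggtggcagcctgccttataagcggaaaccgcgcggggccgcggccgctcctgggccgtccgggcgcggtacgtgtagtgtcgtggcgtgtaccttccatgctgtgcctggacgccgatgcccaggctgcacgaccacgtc
Srebf2 promoter, chr15:82147019-82147318, plus strand: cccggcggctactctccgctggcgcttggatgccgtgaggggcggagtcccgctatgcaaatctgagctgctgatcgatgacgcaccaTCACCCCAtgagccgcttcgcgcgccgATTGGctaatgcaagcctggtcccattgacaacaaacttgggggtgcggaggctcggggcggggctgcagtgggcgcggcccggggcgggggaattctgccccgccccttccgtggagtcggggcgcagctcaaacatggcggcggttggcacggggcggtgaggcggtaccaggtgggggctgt
Srebf1 promoter, chr11:60210422-60210721, minus strand: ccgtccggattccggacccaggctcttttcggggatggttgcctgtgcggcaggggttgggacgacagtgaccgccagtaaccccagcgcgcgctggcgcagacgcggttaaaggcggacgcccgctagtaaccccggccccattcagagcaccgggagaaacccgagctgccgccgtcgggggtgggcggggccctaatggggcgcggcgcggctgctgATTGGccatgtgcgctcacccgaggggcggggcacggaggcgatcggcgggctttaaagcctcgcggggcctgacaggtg
Hmgcs1 promoter, chr13:119690101-119690400, plus strand: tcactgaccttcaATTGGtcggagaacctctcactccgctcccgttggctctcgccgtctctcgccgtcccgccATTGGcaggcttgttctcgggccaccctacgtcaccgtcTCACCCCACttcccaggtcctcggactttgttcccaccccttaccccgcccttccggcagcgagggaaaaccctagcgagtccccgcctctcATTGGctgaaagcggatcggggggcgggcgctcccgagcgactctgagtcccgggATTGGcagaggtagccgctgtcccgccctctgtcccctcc

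The *Insig1* window held an E-box 101 bases before the start and, on the opposite strand, an NF-Y box 216 bases before it. The *Srebf2* window held the shorter sterol element 162 bases before the start and an NF-Y box 135 bases before it. The *Srebf1* window printed held 1 NF-Y box on the opposite strand, 30 bases before the start, and the *Mylip* window, not printed, held 3 NF-Y boxes. The full sterol element was in 0 of the 12 member windows and in 1.24% of all 32851 promoters, and the shorter one was in 1 member window and in 1.56% of all. Of the 18 windows of SREBP-2 targets, the full element was in 1, that of *Hmgcs1*, so the window printed does not stand for that list. The E-box was in 3 member windows, 1 of *Insig1* and 2 overlapping windows of *Scap* that hold the same E-box, and in 7.15% of all. Counted by gene, it was in 2 of 7 members and in 8.09% of all genes with a window. NF-Y boxes were in 6 of the 12 member windows, of 5 genes, and in 37.4% of all promoters. DR1 and DR4 repeats with exact half-sites were in 0 member windows and in 0.0396% and 0.0152% of all promoters. A match describes these letters in this window and is no evidence of binding. Sites that differ from these letters by even 1 base were not searched for. A window without a match, such as the *Srebf1* window for the sterol and DR4 elements, is therefore not shown to lack such sites.

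Apart from genotype, the members varied little in common from pup to pup. With each genotype's mean removed, the 28 pairs of members correlated across the 12 pups between -0.391 and 0.664, with a median Pearson r of 0.153. *Insig1* and *Stard4* formed the closest pair (r = 0.664, permutation p = 0.0254; Spearman rho = 0.692, permutation p = 0.0213), and r was 0.690 without the 2 pups farthest from the median of *Insig1*. After adjustment over the 28 pairs p was 0.467 for r and 0.404 for rho, so 0 pairs passed.

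As a description, each of 4 members was also set against other genes over the same 12 arrays, with genotype means removed. The genes share the same 12 RNA samples, so that anything that differs between pups enters all of them. The SREBP-2 target list had a median r of 0.618 with *Srebf2*, 0.570 with *Stard4* and 0.503 with *Insig1*, and all 17 of its genes had r above 0 with each of them. The median over all genes compared was 0.114, 0.0987 and 0.169 for these members. With *Srebf1* the same list had a median r of 0.144, beside 0.157 over all genes. The SREBP-1c target list had a median r of 0.183 with *Srebf1*, 0.318 with *Srebf2*, 0.127 with *Insig1* and 0.0960 with *Stard4*. The single genes closest to *Srebf1* were *Jup* (0.953), *Slc26a1* and *Cbs* (both 0.947), those closest to *Srebf2* were *Ptbp1* (0.899), *Apbb3* (0.874) and *Pam16* (0.862), and those closest to *Stard4* were *Rab4a* (0.903), *Cyp2d10* (0.891) and *Nr2c1* (0.876). Those closest to *Insig1* were *Lcmt1* (0.891), *Wdr83* (0.882) and *Bbs9* (0.875), the last of which fell to 0.486 without 2 pups. None of these genes belongs to the lists described here.

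The remaining factors of SREBP transport, cleavage and sterol-regulated degradation gave no calls. Of 23 listed, 20 were measured, and 0 were called in either direction, with a median difference of 0.03 and single values from -0.16 to 0.17; at an unadjusted p under 0.05, 3 were lower and 7 higher, against 7.89% and 9.27% of all genes.

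The known targets of both transcription factors were set beside them, in lists also chosen with earlier results of these data known. Of 17 measured SREBP-2 targets of cholesterol synthesis and uptake (22 listed), 15 were called higher and 0 lower, with a median difference of 0.44, larger than that of any member. *Msmo1*, a sterol demethylation enzyme, differed by 0.79 (limma, adjusted p = 5.7e-05), *Idi1* by 0.68, *Cyp51* by 0.61 and *Lss* by 0.60. Of the 17 SREBP-1c targets of fatty acid synthesis, 3 were called higher (*Acacb* 0.72, *Elovl6* 0.47 and *Acly* 0.34) and 4 lower (*Scd1* -0.80, *Fads2* -0.36, *Me1* -0.32 and *Mid1ip1* -0.29), with a median of 0.05. Several of these genes have other known regulators, PPARα among them.

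Of 13 measured liver X receptor genes and targets (14 listed), which include *Srebf1*, *Mylip* and *Scd1*, 4 were called lower (*Abcg8* -0.84, *Scd1* -0.80, *Abcg5* -0.62 and *Lpl* -0.39) and 0 higher, with a median of -0.06. The share called lower was 30.8%, against 1.12% of all genes. The other 9 genes of the list were not called. Of the 13 differences, 9 lay below 0 and 4 above, so the calls do not stand for the whole list. *Abcg5* and *Abcg8* encode the paired transporter that exports sterols into bile. Among 8 measured genes of the ubiquitin partners of IDOL and the receptors it acts on (11 listed, *Mylip* included), *Vldlr* was called higher (0.44) and *Lrp1* lower (-0.29), with a median of 0.04. The *Lrp1* call was lost when *Ppara*+/+ replicate 1, 2 or 8, or *Ppara*-/- replicate 10 or 11, was left out. Of the 15 sterol carriers listed beside *Stard4*, 1 was called higher, *Npc1* (0.18, adjusted p = 0.0479), a lysosomal cholesterol exporter, and 0 lower, with a median of 0.06. No carrier was called when any 1 pup other than *Ppara*+/+ replicate 7 was left out.

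**Figure D4:**
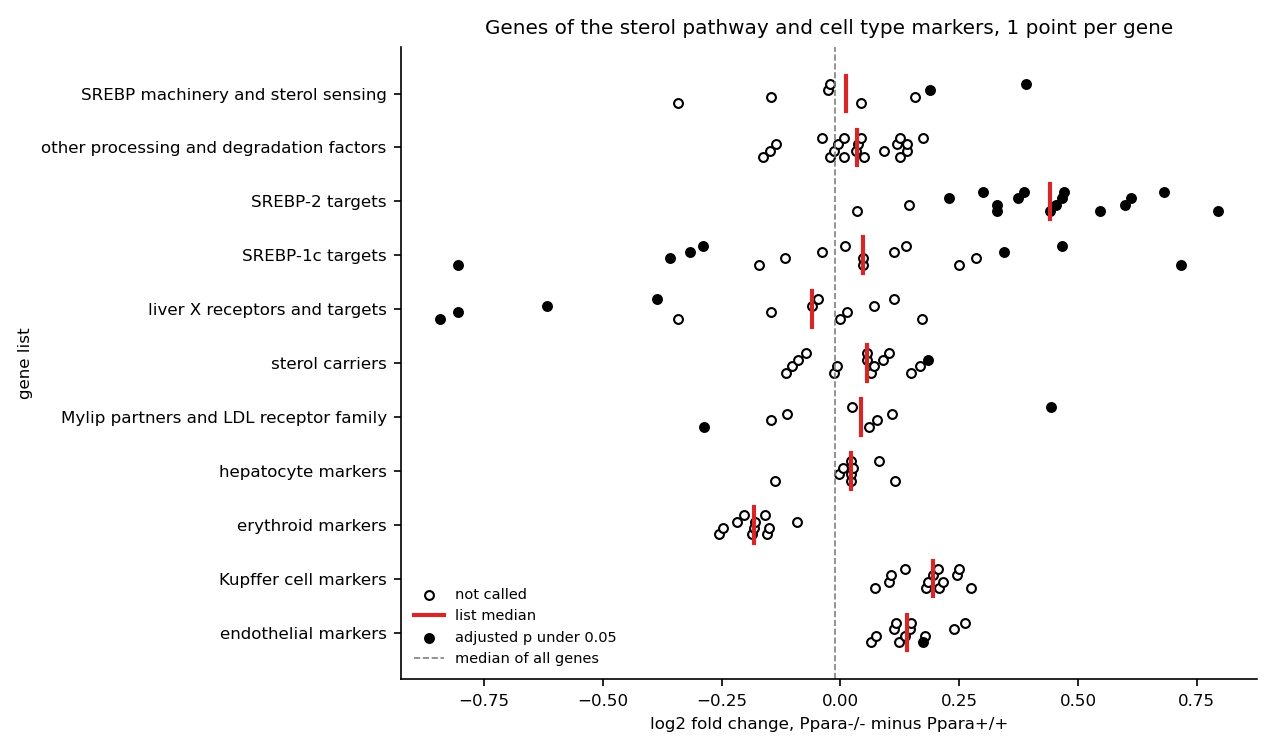
Log2 fold change between genotypes (horizontal axis) for every measured gene of each list, with 1 point per gene, filled where the adjusted p was under 0.05. Red bars mark list medians and the dashed line the median of all genes; the SREBP-2 targets lie to the right with a median of 0.44, while the 8 machinery genes spread to both sides of 0.

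Markers of other cell types showed differences as large as those of *Stard4*, *Srebf2* and *Mylip*. All 13 Kupffer cell markers had differences above 0, with a median of 0.19 and 0 calls, although 9 had an unadjusted p under 0.05 (9.27% of all genes were higher at that p). All 12 endothelial markers had differences above 0, with a median of 0.14 and 1 call (*Flt1*, 0.17), and 0 calls in 8 of the 12 fits without 1 pup. All 11 measured erythroid markers (15 listed) had differences below 0, with a median of -0.18 and 0 calls, although 8 had an unadjusted p under 0.05 (7.89% of all genes were lower at that p). Without *Ppara*+/+ replicate 7, 5 Kupffer, 4 endothelial and 3 erythroid markers were called. The log2 of the summed marker signal ran from 14.16 to 14.47 in *Ppara*+/+ and 14.37 to 14.50 in *Ppara*-/- livers for Kupffer cells, from 13.72 to 13.89 and 13.87 to 13.99 for endothelial cells, and from 15.09 to 15.47 and 14.99 to 15.36 for erythroid cells. For hepatocytes it ran from 16.82 to 16.87 and 16.84 to 16.88, with 0 of 9 markers called. Medians were 0.09 for 9 stellate cell, 0.08 for 9 granulocyte, 0.06 for 5 cholangiocyte and 0.04 for 4 megakaryocyte markers, with 0 calls. Every measured marker but *Epcam* of the cholangiocytes (6.78) lay above the array medians. The part of cell composition in the differences of *Insig1*, *Stard4*, *Srebf1*, *Srebf2* and *Mylip* was not tested.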

How the data were processed

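Per the labels, whole-liver RNA with an integrity number above 8 was labelled from 100 ng and hybridised to mouse gene arrays, 1 array per pup. The authors summarised the scans by RMA, and deposited 1 log2 value for each probe set and array, which was used unchanged. The software version, scan dates and batches are not given in the sources used here, and the number of arrays, 12, limits the precision. The methods name 3 litters per genotype.

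Of 35556 probe sets, 21789 named 1 gene, 1621 several and 12146 none. A gene was read from its probe set with the highest mean among those naming it alone. The limma package (3.58.1, under R 4.3.3) fitted genotype and sex to every probe set by lmFit and eBayes, with 9 residual and 2.49 prior degrees of freedom, and p-values were adjusted by Benjamini-Hochberg over all of them. An exact Mann-Whitney test was an alternative. The study lists a Mann-Whitney test among its general statistics, and selected array genes by a false discovery rate and a fold-change cut-off. Gene pairs were compared by exact permutation over pups, and correlations by 100000 permutations within genotype (Python 3.11.15, scipy 1.17.1). The fit was tested on simulated data.

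The members and lists were chosen with earlier results of these data known. The genes named are all members, *Ppara*, up to 4 called genes per list and direction, and the 3 genes most correlated with each of *Srebf1*, *Srebf2*, *Insig1* and *Stard4* among 11306 genes brighter than the median. *Hnf4a*, *Alb*, *Epcam* and *Hmgcs1* were added after their values were seen. Genes of the lists without a probe set of their own were not analysed here. Sequences are from RefSeq.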

Additional observations from a re-analysis of the deposited data

How the results depend on the processing

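The differences of *Insig1*, *Stard4*, *Srebf1*, *Srebf2*, *Mylip*, *Scap* and *Mbtps1* kept their sign under every alternative run, as did both within-pup pair differences. That of *Insig2* ran from -0.0543 to 0.0034 with 1 pup left out, above 0 without *Ppara*+/+ replicate 1, and the cholangiocyte median ran from -0.0045 to 0.154, below 0 without *Ppara*-/- replicate 11. The number of members called lower was 1 (*Srebf1*) with dim probe sets left out, with probe sets of 1 gene alone or with a gene's probe sets averaged, 2 by the unadjusted exact permutation test (*Srebf1* and *Mylip*), and 0 to 1 with 1 pup left out. The number called higher was 0 by the adjusted exact Mann-Whitney test (where 0.0691 is the smallest adjusted p any probe set had, so that none could pass and the 0 says nothing about stability), 0 in males alone, 0 in females alone, 1 above 1.3-fold, 1 without *Ppara*-/- replicates 6 and 10, and 1 to 2 with 1 pup left out. Without *Ppara*-/- replicate 5, *Srebf2* passed (adjusted p = 0.0466) while *Stard4* did not. *Srebf2* also passed with a trended robust prior and under the 3 settings that called *Srebf1*. Those 3 settings test fewer probe sets by construction; for the other changes the cause was not tested.

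Of the lists, calls higher were 0 sterol carriers and 1 Kupffer marker after quantile normalization. With array weights they were 1 other processing factor, 4 Kupffer, 4 endothelial and 1 stellate marker. Without *Ppara*-/- replicates 6 and 10 they were 0 sterol carriers and 0 endothelial markers, and 0 of the IDOL and LDL receptor family were lower. With 1 pup left out, calls ran from 0 to 2 sterol carriers, 0 to 5 Kupffer, 0 to 4 endothelial and 0 to 1 stellate markers higher, and from 0 to 1 other processing factors, 0 to 3 erythroid markers and 0 to 1 of the IDOL and LDL receptor family lower; the higher ends came without *Ppara*+/+ replicate 7, the last apart. SREBP-2 targets called higher stayed between 11 and 15. No paired analysis was possible because the genotypes share no replicate number. Reading a member from another of its probe sets gave no value, since each has 1.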
